A study of Mus musculus with 54 samples.

Results

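The 10 genes described here encode C-type lectin receptors and close relatives that are mostly known from myeloid cells: Clec4e, Clec4d, Clec4n, Clec5a, Clec7a, Clec1b, Clec12a, Clec4a2, Clec2d and Clec2i. They are 10 of 19938 genes measured on 27 Affymetrix mouse arrays of Ba/F3-gp130 cells, and each was represented by 1 gene-level probe set listed with its symbol alone. The rule took, for a gene with several such probe sets, the one with the highest mean over the 27 arrays, and no choice arose for these 10. The genes were chosen by name with their differences between lines and stimulations on these same arrays already known, so the adjusted p values below place a gene among all 19938 genes and are not independent support.

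The mouse pro-B cell line Ba/F3 needs a cytokine to grow, and the gp130 form used here depended on Hyper-IL-6, in which interleukin-6 is fused to the soluble interleukin-6 receptor so that it can engage gp130 alone. The study set out to see what the Cargo Internalization Receptor (CIR) constructs do to the cells as a whole. The 4 lines were untransfected Ba/F3-gp130 cells, called parental here, and the lines transfected with CIR-1, CIR-2 or CIR-3. All 4 lines carried gp130, were grown with 10 ng/ml Hyper-IL-6, were then washed and were kept without serum for 3 h. Each line was measured unstimulated and after 1 h with 50 µl/ml of the GFP-PFC emulsion, and parental cells also after 1 h with 100 ng/ml Hyper-IL-6, the positive stimulation control. That gave 9 groups of 3 arrays. Each CIR line is a single transfected line, whether it is 1 clone is not stated, and nothing in the labels says that arrays of 1 group stem from different cultures. Differences between lines are therefore differences between these 4 cultures, and the p values measure only the spread between arrays, which may be technical.

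C-type lectin receptors are membrane proteins with a carbohydrate-recognition fold, and many of them bind glycolipids, glycans or proteins of microbes and damaged cells. Activating members signal through spleen tyrosine kinase Syk, either by pairing with an adaptor that carries an ITAM (an activating tyrosine motif), such as the Fc receptor gamma chain Fcer1g or DAP12 (Tyrobp), or through a motif of their own. Inhibitory members carry an ITIM, which recruits phosphatases. The genes are expressed in macrophages, neutrophils, dendritic cells, platelets or lymphocytes, according to the member.

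All 10 genes lie on chromosome 6 in the RefSeq annotation of GRCm38.p6. Clec4a2, Clec4n, Clec4d and Clec4e form 1 run in which Clec4b2 is the 1 other protein-coding gene. Clec2i, Clec2d, Clec12a, Clec1b and Clec7a lie in a second run, with at most 4 other protein-coding genes between neighbouring members, and Clec5a stands alone, 631 protein-coding genes away from Clec4a2. The deposited tables name no genome build, so these positions come from RefSeq and not from the arrays.

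The promoters of 3 genes whose signal was lower in CIR-1 cells and of Clec2d, whose signal was lower after Hyper-IL-6, are shown because the first 3 share motif letters that Clec2d lacks. The RefSeq promoter table (GRCm38.p6) held 9 of the 10 members, all but Clec4n, with 250 bases before and 50 bases after the start, and the 250 bases before it are printed 5′ to 3′ on the gene's strand. Capitals mark matches, on either strand, to GAGGAA (the PU.1-type ETS motif), TTGCNNAA (C/EBP), TGTGGT (RUNX) and TGANTCA (AP-1).
Clec4e (chr6:123289872-123290121, minus strand): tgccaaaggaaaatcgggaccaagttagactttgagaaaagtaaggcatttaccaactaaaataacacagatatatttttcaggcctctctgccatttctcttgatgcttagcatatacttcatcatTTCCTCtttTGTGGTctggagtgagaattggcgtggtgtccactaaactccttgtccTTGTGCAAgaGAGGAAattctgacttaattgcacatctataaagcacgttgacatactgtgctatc
Clec5a (chr6:40585806-40586055, minus strand): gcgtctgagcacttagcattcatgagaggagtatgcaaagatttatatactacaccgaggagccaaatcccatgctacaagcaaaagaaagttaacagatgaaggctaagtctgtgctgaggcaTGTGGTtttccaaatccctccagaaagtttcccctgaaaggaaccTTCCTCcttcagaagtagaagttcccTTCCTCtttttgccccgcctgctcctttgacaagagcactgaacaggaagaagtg
Clec12a (chr6:129349994-129350243, plus strand): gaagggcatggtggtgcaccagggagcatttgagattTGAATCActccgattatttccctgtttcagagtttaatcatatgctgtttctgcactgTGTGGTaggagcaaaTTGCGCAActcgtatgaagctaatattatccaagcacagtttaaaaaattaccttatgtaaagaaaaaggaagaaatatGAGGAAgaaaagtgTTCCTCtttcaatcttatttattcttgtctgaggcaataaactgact
Clec2d (chr6:129180365-129180614, plus strand): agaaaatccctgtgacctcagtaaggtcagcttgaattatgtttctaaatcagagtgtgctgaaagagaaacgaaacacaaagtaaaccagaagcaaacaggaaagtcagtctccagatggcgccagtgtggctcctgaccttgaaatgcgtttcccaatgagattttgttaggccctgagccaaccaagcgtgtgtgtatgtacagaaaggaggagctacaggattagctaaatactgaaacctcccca

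PU.1 (Spi1), C/EBP factors and RUNX1 are regulators of myeloid genes, and the motifs were chosen after the array values were known. GAGGAA or its complement stood in the 300-base promoters of 5 of the 9 members, Clec4e, Clec4d, Clec5a, Clec12a and Clec7a, and in 28.1% of all 32544 promoters of the table. In Clec12a the matches began at positions -61 and -47, in Clec5a at -81 and -55 and in Clec4e at -123 and -56, counted from the start. TTGCNNAA stood at -140 in Clec12a and at -66 in Clec4e, and after the start in Clec2i (10.8% of all promoters). TGTGGT stood in Clec4e, Clec5a and Clec12a (16.7%). Clec2i, whose signal was also lower in CIR-1 cells, matched neither GAGGAA nor TGTGGT and is not printed. Clec4d, called lower in CIR-1 cells with GFP-PFC only, matched neither TGTGGT nor TTGCNNAA and is not printed either. Clec7a matched GAGGAA, although its signal was low and alike in all groups. The GAGGAA letters therefore did not separate the members lower in CIR-1 cells from the others. The AP-1 letters stood in Clec12a, at -213, and in Clec4a2 (7.79%). The remaining searches, TTCNNNGAA for STAT factors (8.33% of all promoters) and AGATAA for GATA factors (11.2%), matched Clec4a2 and Clec1b, respectively. No match to any of the 6 motifs overlapped another in the printed sequences, and none of the 6 stood in the Clec2d window. A match is a description of letters, and factor binding was not measured.

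Signals are log2 values, and a level is called above background here when it exceeds 7.19, the 95th percentile over the arrays of 1194 odorant and pheromone receptor genes, which serve sensory neurons. By that measure 6 of the 10 genes gave a signal above background in at least 1 group. Clec2d and Clec2i exceeded it on 27 of 27 arrays, Clec4e on 26, Clec12a on 21, Clec5a on 20 and Clec4d on 14. Clec4n, Clec7a, Clec1b and Clec4a2 exceeded it on 0 of 27 arrays. The medians of the arrays, 7.52 to 7.65, also exceeded 7.19, so most values on an array did. The count of 6 of 10, and later counts above background, are descriptions and do not set a list apart from other genes. Differences against a mean below 7.19 are differences of signals and can understate the change in RNA. In such bulk samples fewer cells with a transcript and less transcript per cell cannot be told apart.

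**Figure D1:**
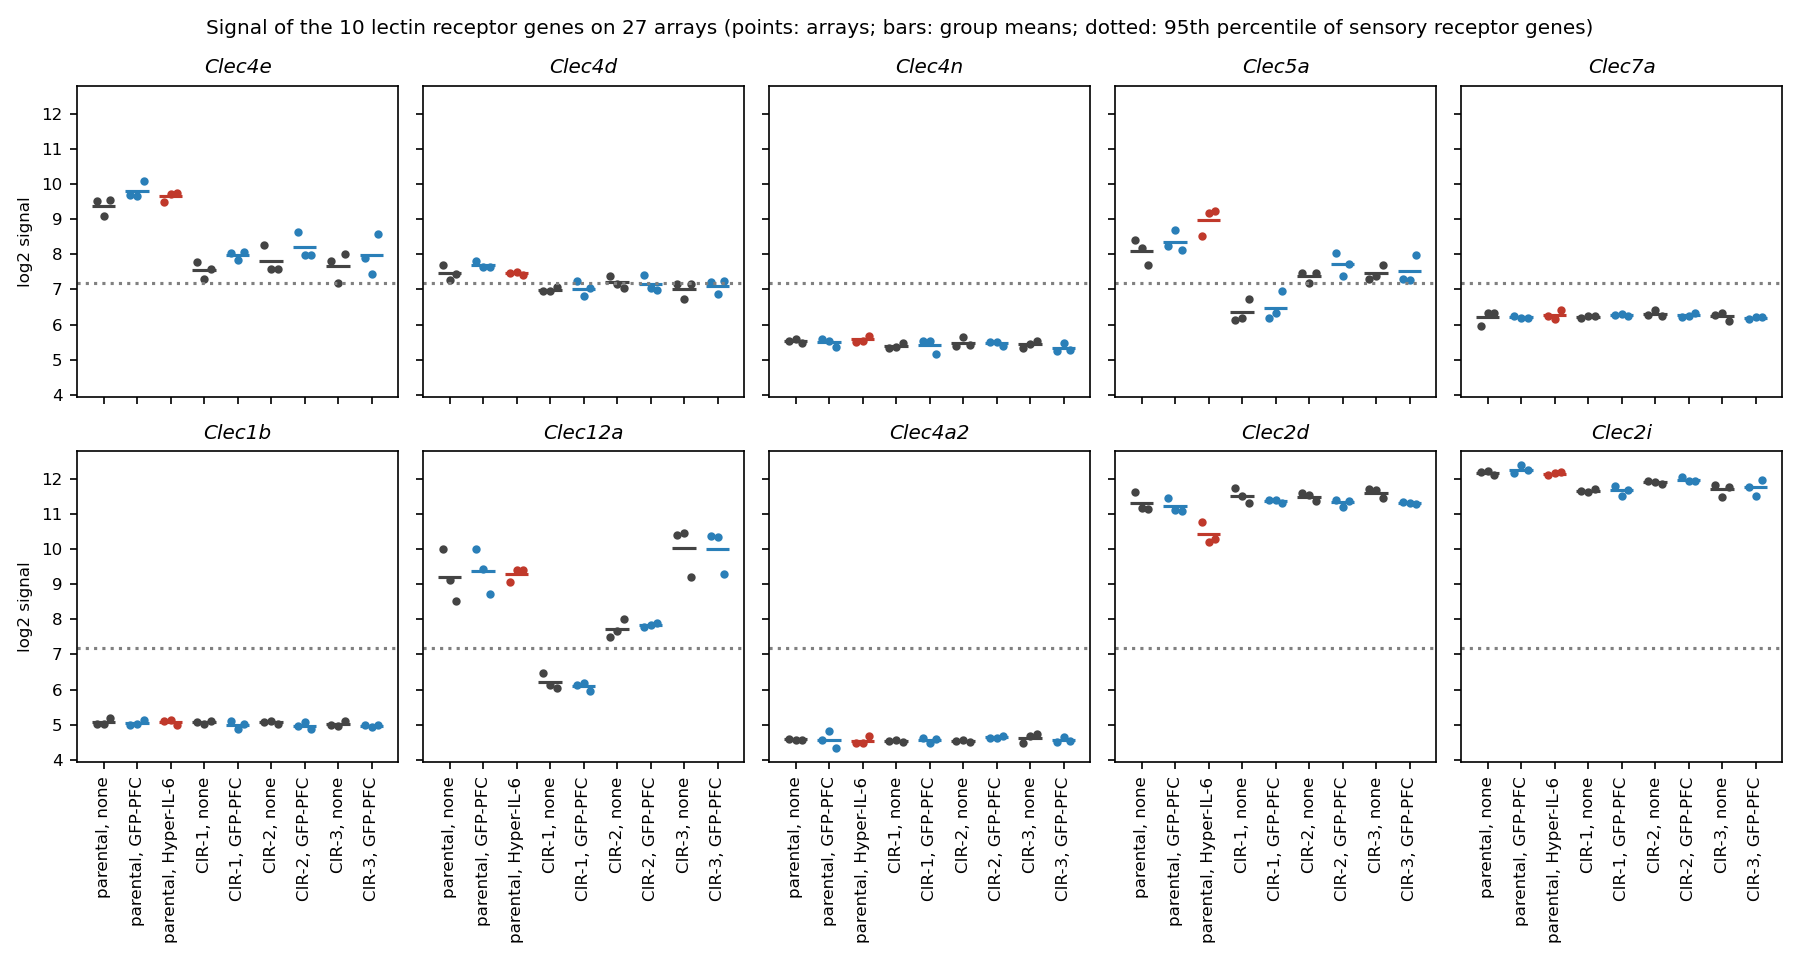
Log2 signal (vertical axis) of the 10 genes in the 9 groups (horizontal axis: line and stimulation), with 1 point per array, a bar at each group mean and a dotted line at 7.19, the 95th percentile of the sensory receptor genes. Clec12a runs from a mean of 6.09 in CIR-1 cells with GFP-PFC to 10.02 in unstimulated CIR-3 cells, Clec4e separates the parental groups from all CIR groups, and Clec4n, Clec7a, Clec1b and Clec4a2 stay below the line on every array.

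The cells were also set against marker genes of their labelled type. Of 13 measured pro-B markers, 3 (Cd79a, Cd79b and Igll1) were above background in all 9 groups and 8 in none, among them the recombinase genes Rag1 and Rag2 and the interleukin-7 receptor Il7r. Pax5 was above background in 8 groups and Vpreb3 in 4. Of 17 markers of monocytes, macrophages and granulocytes, 9 were above background in all 9 groups, including Spi1 with group means from 12.24 to 12.50. Itgam, Cd14, Csf3r, Tlr4 and Adgre1 were above it in none. Csf1r was above it in 8 groups, and Fcgr1 and Lyz2 in 5 each. The arrays' medians ran from 7.52 to 7.65 and so lay above background too. The count of 9 of 17 therefore does not set these markers apart from other genes.

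Clec12a, an inhibitory ITIM receptor that senses uric acid crystals, varied most among the 10. Its group means spanned 3.92 log2 units, and 8 of the 19938 genes, Clec12a included, spanned as much. In unstimulated parental cells its signals were 10.00, 9.12 and 8.52. In CIR-1 cells they were 6.47, 6.14 and 6.06. CIR-2 cells lay between these groups, with signals of 7.51, 7.68 and 8.02. CIR-3 cells gave 10.39, 10.46 and 9.20, which overlapped the parental values. The CIR-1 arrays were all lower than those of every other line, and all of them were below background.

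With GFP-PFC the order of the lines was the same for Clec12a. The arrays gave 9.99, 9.42 and 8.71 in parental cells, 6.12, 6.18 and 5.97 in CIR-1 cells, 7.78, 7.85 and 7.90 in CIR-2 cells and 10.36, 10.35 and 9.30 in CIR-3 cells. After Hyper-IL-6 the parental arrays gave 9.05, 9.39 and 9.39, inside the range of the unstimulated ones.

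Clec12a was lower than in parental cells in CIR-1 and CIR-2. In CIR-1 the difference was -2.99 without stimulation (SE 0.343, 7.94-fold, limma adjusted p = 6.75e-06) and -3.28 with GFP-PFC (SE 0.343, 9.71-fold, adjusted p = 1.3e-06), with group values of 6.22 ± 0.222 against 9.21 ± 0.742 and 6.09 ± 0.108 against 9.37 ± 0.641 (mean ± SD, n = 3). In CIR-2 the differences were -1.48 (SE 0.343, adjusted p = 0.0272) and -1.53 (SE 0.343, adjusted p = 0.0202). In CIR-3 they were +0.80 (limma unadjusted p = 0.0281, adjusted p = 0.351) and +0.63 (unadjusted p = 0.0797, adjusted p = 0.747). Neither passed, and CIR-3 and parental arrays overlapped. The CIR lines were compared with the same parental arrays, so these differences share their controls.

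The CIR-2 result for Clec12a was not firm. Its call without stimulation ended when parental array 1 or 3 or CIR-2 array 1 or 3 was left out (adjusted p from 0.0706 to 0.131), and the difference was -1.08 without parental array 1. With GFP-PFC the call ended when parental array 2 or 4 or any of the 3 CIR-2 arrays was left out (adjusted p from 0.0768 to 0.177). The CIR-3 difference without stimulation was +1.20 (adjusted p = 0.0383) without parental array 1, whose signal was the highest of its group. Leaving out that array also raised the genes called in this comparison from 296 to 1638 of 19938.

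Between CIR lines, where parental arrays play no part, the Clec12a order CIR-1, CIR-2, CIR-3 held with 6 arrays per line. Unstimulated and GFP-PFC arrays of a line with consecutive numbers shared deviations (correlations across genes from 0.282 to 0.633). The 6 arrays are therefore not independent, and the SE and p values of all comparisons between CIR lines may be too small. Same-numbered arrays of different lines shared deviations too (0.137 to 0.763 unstimulated, 0.211 to 0.615 with GFP-PFC), which can act the other way. The net effect was not tested. CIR-2 was 1.63 above CIR-1 (SE 0.243, 3.1-fold, adjusted p = 0.00023). CIR-3 was 3.85 above CIR-1 (SE 0.243, 14.4-fold, adjusted p = 8.39e-11) and 2.22 above CIR-2 (SE 0.243, 4.66-fold, adjusted p = 1.52e-06). No CIR-3 array overlapped a CIR-2 array, and no CIR-2 array overlapped a CIR-1 array.

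Exon-level probe sets, a second deposited summary of the same arrays, were read as a check. In CIR-1 cells without stimulation all 7 Clec12a exon probe sets were lower than in parental cells, with differences from -3.58 to -0.25. In CIR-3 cells all 7 were higher, by 0.13 to 1.04. The probe set with the highest number, 10542171, moved least, with group means between 7.43 and 8.10 in all 9 groups, while probe set 10542166 ran from 6.53 to 10.94. The 6 other probe sets kept the order of the lines seen at gene level.

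**Figure D2:**
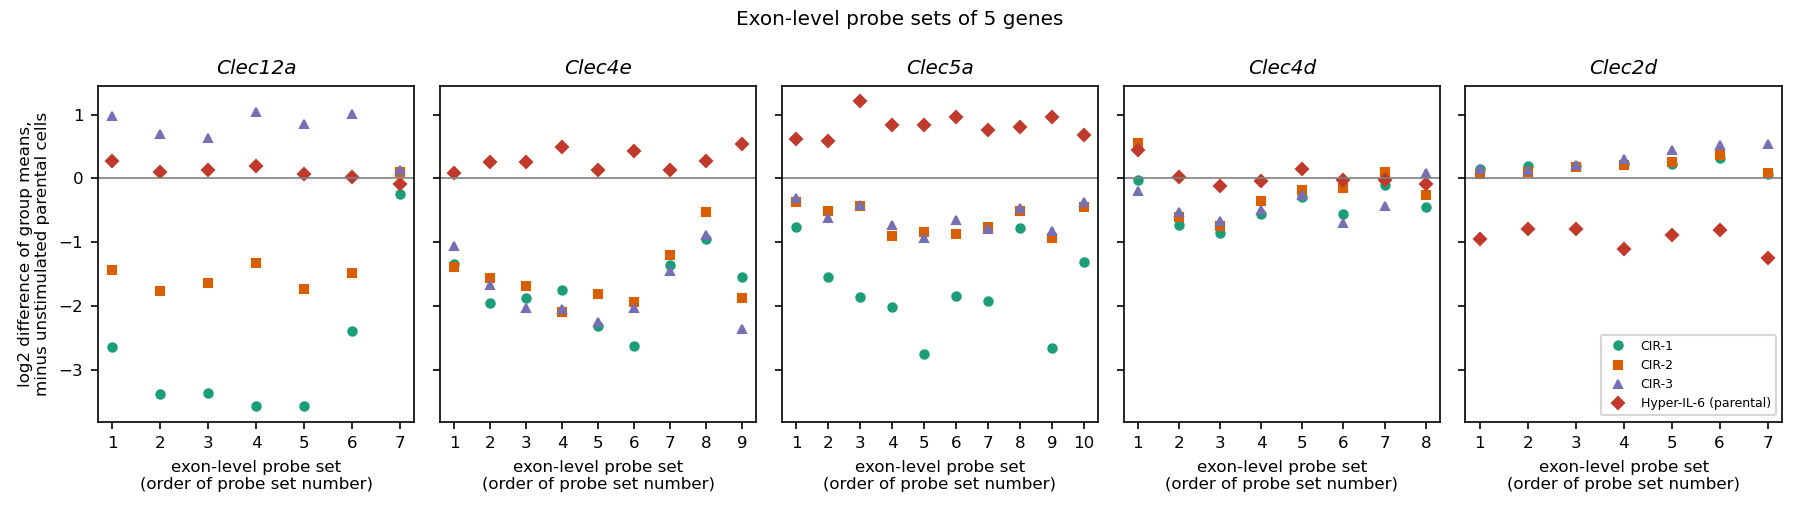
Differences of group means from unstimulated parental cells (vertical axis, log2) for each exon-level probe set (horizontal axis, in order of probe set number) of Clec12a, Clec4e, Clec5a, Clec4d and Clec2d, with 1 symbol for unstimulated CIR-1, CIR-2 and CIR-3 cells and for parental cells after Hyper-IL-6. All 9 Clec4e and all 10 Clec5a probe sets lie below 0 in the 3 CIR lines, all 7 Clec2d probe sets lie below 0 after Hyper-IL-6, and the seventh Clec12a probe set lies near 0 in every line.

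Clec4e (Mincle) and Clec4d (MCL) are neighbouring genes for a pair of receptors that bind mycobacterial glycolipid and signal through Fcer1g. Clec4e was lower than in parental cells in all 3 CIR lines, with little difference among them. Its unstimulated signals were 9.51, 9.08 and 9.54 in parental cells. CIR-1 cells gave 7.77, 7.30 and 7.58, CIR-2 cells 8.25, 7.59 and 7.58, and CIR-3 cells 7.82, 7.18 and 8.02. Every parental array was above every array of a CIR line.

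The Clec4e differences from unstimulated parental cells were -1.83 in CIR-1 (SE 0.245, 3.55-fold, adjusted p = 5.32e-05), -1.57 in CIR-2 (SE 0.245, 2.98-fold, adjusted p = 0.000424) and, for CIR-3, -1.71 (SE 0.245, 3.27-fold, adjusted p = 0.000129). With GFP-PFC, where parental cells gave 9.68, 9.64 and 10.07, they were -1.82 for CIR-1, -1.60 for CIR-2 and -1.82 for CIR-3 (adjusted p = 5.37e-05, 0.000318 and 4.89e-05). Leaving out any 1 array ended none of these 6 calls, and all 9 exon-level probe sets were lower in each of the 6 comparisons. The 3 CIR lines did not differ from each other beyond the spread between arrays (differences from -0.18 to +0.24, SE 0.173, adjusted p from 0.663 to 0.966).

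Clec4d was near background throughout. Its signals were 7.69, 7.28 and 7.43 in unstimulated parental cells and 7.80, 7.65 and 7.63 with GFP-PFC. CIR-1 cells gave 6.96, 6.95 and 7.06 without stimulation and 7.23, 6.81 and 7.03 with GFP-PFC. All parental arrays were above all CIR-1 arrays of the same stimulation, and most CIR arrays were below background.

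With GFP-PFC, Clec4d differed from parental cells by -0.67 in CIR-1 (SE 0.136, adjusted p = 0.0066), by -0.59 in CIR-3 (SE 0.136, adjusted p = 0.024) and by -0.54 in CIR-2 (adjusted p = 0.0505). Without stimulation the differences were -0.48 for CIR-1, -0.27 for CIR-2 and -0.46 for CIR-3 (adjusted p = 0.0855, 0.658 and 0.109). With the array numbers as a replicate block the CIR-1 and CIR-3 differences without stimulation passed (adjusted p = 0.00607 and 0.00922), and so did CIR-2 with GFP-PFC (adjusted p = 0.00253). The CIR-1 call with GFP-PFC ended without parental array 2 or CIR-1 array 4 (adjusted p of 0.0518 and 0.0734), and the CIR-3 call without any 1 of the 3 parental arrays or CIR-3 array 4 (adjusted p from 0.0588 to 0.211). The CIR-3 call also ended with exon-level values and with quantile normalization (adjusted p = 0.0556 and 0.0918).

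Clec4n (Dectin-2), a receptor for fungal mannans that also pairs with Fcer1g and lies beside Clec4d, had signals between 5.18 and 5.69 on the 27 arrays. Clec7a (Dectin-1), the beta-glucan receptor, lay between 5.95 and 6.42. Clec1b (CLEC-2), the platelet receptor for podoplanin, lay between 4.87 and 5.20, and the inhibitory Clec4a2 between 4.35 and 4.82. Their group means spanned 0.106 to 0.243, and none of these 4 passed in any comparison.

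Clec5a, a DAP12-coupled activating receptor of monocytes and neutrophils, set CIR-1 apart from CIR-2 and CIR-3. Its unstimulated signals were 8.42, 8.19 and 7.70 in parental cells. CIR-1 cells gave 6.13, 6.18 and 6.74, CIR-2 cells 7.47, 7.17 and 7.48, and CIR-3 cells 7.29, 7.37 and 7.70. The CIR-1 arrays were all below background and below every array of the other lines. With GFP-PFC the CIR-1 arrays gave 6.18, 6.33 and 6.95 and the parental arrays 8.24, 8.69 and 8.13.

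In CIR-1, Clec5a differed from parental cells by -1.75 without stimulation (SE 0.244, 3.37-fold, adjusted p = 8.5e-05) and by -1.87 with GFP-PFC (SE 0.244, 3.65-fold, adjusted p = 3.59e-05). In CIR-2 the differences of -0.73 and -0.64 did not pass (adjusted p = 0.234 and 0.405), nor did those of -0.65 and -0.83 in CIR-3 (adjusted p = 0.26 and 0.139). Without CIR-3 array 6 the CIR-3 difference with GFP-PFC was -1.06 (adjusted p = 0.0464). The direct comparison of the CIR lines placed CIR-2 above CIR-1 by 1.12 (SE 0.173, 2.18-fold, adjusted p = 0.000327) and CIR-3 above CIR-1 by 1.07 (SE 0.173, 2.1-fold, adjusted p = 0.000297), while CIR-3 and CIR-2 differed by -0.05 (adjusted p = 0.911). All 10 exon-level probe sets of Clec5a were lower in each CIR line than in parental cells, under both conditions.

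Clec2d (Clr-b) and Clec2i (Clr-g) differ from the others in being ligands of natural killer receptors as well as lectin-like proteins. Clec2d is the ligand of the inhibitory receptor NKR-P1B, and cells that lose Clec2d become more exposed to natural killer cells. Clec2i binds NKR-P1F, the product of Klrb1f. Both were well above background in every group.

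Clec2i was slightly lower in every CIR line, and the difference passed in CIR-1 and CIR-3 only. Its unstimulated signals were 12.19, 12.22 and 12.11 in parental cells. CIR-1 cells gave 11.65, 11.61 and 11.70, CIR-2 cells 11.95, 11.90 and 11.86, and CIR-3 cells 11.83, 11.49 and 11.78. None of the CIR arrays reached the parental ones.

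The Clec2i difference from parental cells was -0.52 in CIR-1 without stimulation (SE 0.0979, adjusted p = 0.00317) and -0.59 with GFP-PFC (adjusted p = 0.000704). In CIR-3 it was -0.47 (adjusted p = 0.0083) and -0.51 (adjusted p = 0.00467), and in CIR-2 -0.27 and -0.29, which did not pass (adjusted p = 0.31 and 0.255). In a fit to only the compared arrays the CIR-1 call without stimulation ended (adjusted p = 0.0609), and so did the CIR-3 calls (adjusted p = 0.189 without stimulation and 0.142 with GFP-PFC). The CIR-3 call ended without parental array 3 or CIR-3 array 3 (adjusted p of 0.0538 and 0.0939), and with GFP-PFC without CIR-3 array 4 (adjusted p = 0.0566). CIR-2 was 0.28 above CIR-1 (SE 0.0692, adjusted p = 0.0428), a call that ended when any 1 of 11 of the 12 arrays was left out (adjusted p from 0.0628 to 0.159), the exception being CIR-1 array 2. CIR-3 and CIR-2 differed by -0.21 (adjusted p = 0.134), and by -0.27 without CIR-3 array 6 (adjusted p = 0.0386).

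**Figure D3:**
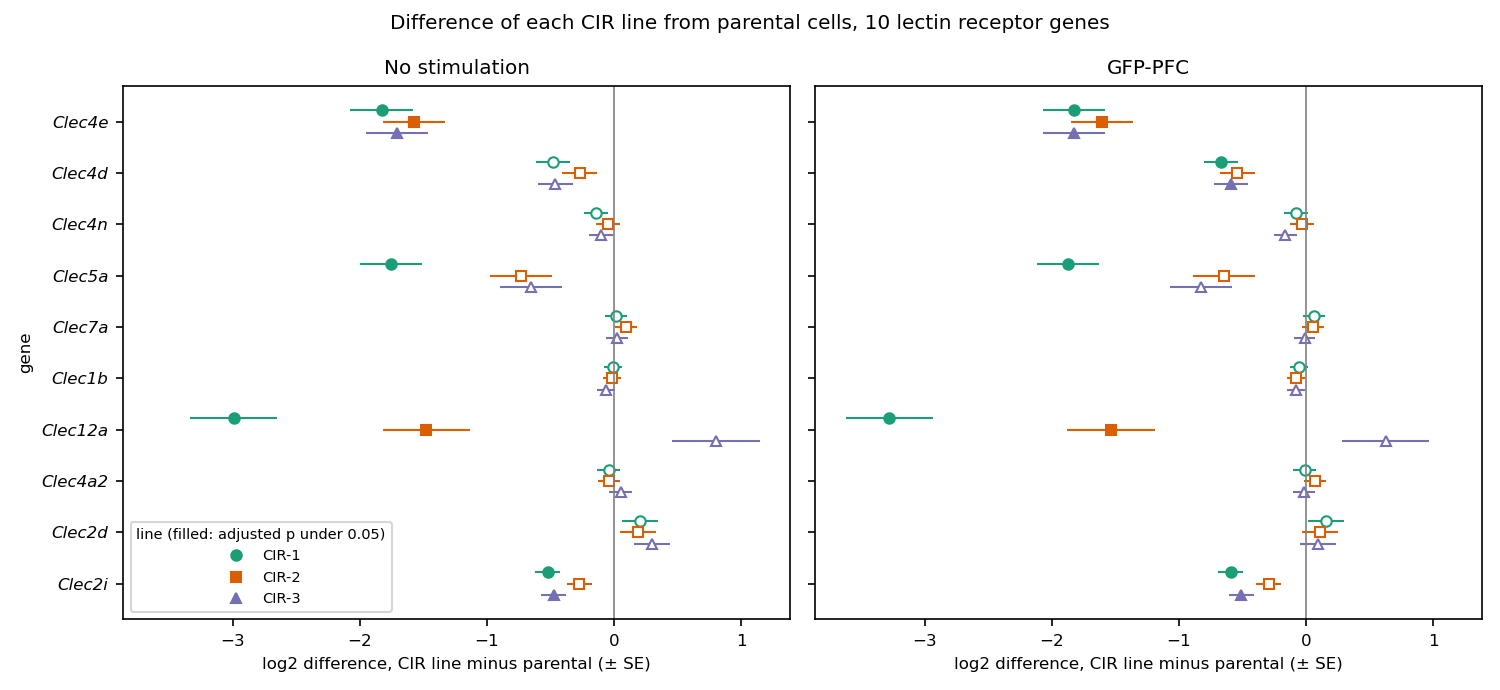
Log2 difference of each CIR line from parental cells (horizontal axis, with bars of 1 SE) for the 10 genes (vertical axis), without stimulation on the left and with GFP-PFC on the right, with filled symbols where the limma adjusted p was under 0.05. Clec4e lies between -1.57 and -1.83 in all 6 comparisons, while Clec12a runs from -3.28 in CIR-1 to +0.80 in CIR-3.

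Counted over the members, 4 of 10 were called lower (adjusted p under 0.05) and 0 higher in unstimulated CIR-1 cells, where 0.587% of all genes were called lower. The counts were 2 lower in CIR-2, where 0.321% of all genes were called lower, and 2 lower in CIR-3, where 0.296% were. With GFP-PFC, 5 members were called lower in CIR-1 (0.502% of all genes), 2 members with CIR-2 (0.311%) and 3 members with CIR-3 (0.281%). None was called higher under either condition, where 1.14%, 0.888% and 1.19% of all genes were called higher without stimulation and 1.14%, 0.868% and 0.963% with GFP-PFC (CIR-1, CIR-2 and CIR-3 in order). Among the CIR lines, 3 members were called higher in CIR-2 than in CIR-1 (0.777% of all genes higher), 2 higher in CIR-3 than in CIR-1 (1.75%) and 1 higher in CIR-3 than in CIR-2 (1.39%). The median difference of the 10 members from parental cells was -0.31 with CIR-1, -0.16 with CIR-2 and -0.08 with CIR-3 without stimulation, against medians over all genes of -0.002, -0.010 and -0.023. The members were picked with these results known, so their counts are a description.

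A few myeloid and mast cell markers also differed in these comparisons, while most did not. Of all genes, 1.73%, 1.21% and 1.48% were called in either direction in unstimulated CIR-1, CIR-2 and CIR-3 cells. The lists were chosen with earlier results known, so their counts are a description. At such shares, no call in a short list is no result about that list. Of the 17 monocyte, macrophage and granulocyte markers, 1 was lower and 1 higher in unstimulated CIR-1 cells, 1 was lower in CIR-2, and 1 was lower and 1 higher in CIR-3. Mpo, the granule enzyme myeloperoxidase, was the lower one in CIR-1 and CIR-2 (-1.55 and -1.51, adjusted p = 5.77e-05 and 9.8e-05) and the higher one in CIR-3 (+1.02, adjusted p = 0.00781). The other calls went the opposite way to Mpo in the same line. Fcgr1 was the higher one in CIR-1 (+0.73, adjusted p = 0.0023), and Lyz2 was the lower one in CIR-3 (-0.79, adjusted p = 7.3e-06). Of 10 mast cell and basophil markers, 2 were lower in CIR-1 cells, 2 in CIR-2 cells and 1 in CIR-3 cells. Of 5 megakaryocyte and platelet markers, 2 were higher in CIR-1 cells, and no pro-B, dendritic cell or natural killer and T cell marker passed against unstimulated parental cells. Fcer1a, the ligand-binding chain of the IgE receptor, differed from parental cells by -4.10 to -4.06 in the unstimulated CIR lines, with means between 4.99 and 5.03 against 9.09 in parental cells. Whether these shifts have a part in the lectin differences was not tested.

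Signalling partners of the receptors were measured alongside. Of 24 adaptor and signalling genes, 20 were above background in all 9 groups. None was called against unstimulated parental cells in any CIR line, where 1.73%, 1.21% and 1.48% of all genes were called in either direction. Fcer1g, the partner of Clec4e, Clec4d and Clec4n, had group means between 12.06 and 12.48 and passed in no comparison. Tyrobp, the partner of Clec5a, was 9.19 ± 0.25 in unstimulated CIR-1 cells, 9.65 ± 0.078 in CIR-2 cells and 10.08 ± 0.14 in CIR-3 cells, against 9.64 ± 0.074 in parental cells (mean ± SD, n = 3). CIR-2 and CIR-3 were above CIR-1 in Tyrobp by 0.46 (SE 0.085, adjusted p = 0.00278) and 0.91 (SE 0.085, adjusted p = 9.68e-08), in the same direction as Clec5a. CIR-3 was also above CIR-2, by 0.45 (adjusted p = 0.00288), where Clec5a did not differ.

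With GFP-PFC, Lcp2 (SLP-76) and the inflammasome adaptor Pycard were higher in CIR-1 than in parental cells by 0.45 and 0.44 (adjusted p = 0.0285 and 0.00543). Tyrobp was higher in CIR-3 by 0.49 (adjusted p = 0.0392). No other of the 24 genes passed against parental cells with GFP-PFC.

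Of 44 other C-type lectin genes measured, 32 were above background in no group, among them Clec4b2, Clec12b, Clec9a, Clec1a and Cd69, which lie between the members. None of the 44 was called in CIR-1 or CIR-2 against parental cells, under either condition. Of all genes, 1.73% and 1.21% were called there without stimulation, and with GFP-PFC 327 and 235 of 19938. The 0 of 44 lies near these shares and does not set the members apart. In unstimulated CIR-3 cells 3 were higher and 1 lower, where 1.19% of all genes were called higher and 0.296% lower. The higher ones were Clec2g by 0.80 (adjusted p = 0.000651), the B-cell inhibitory receptor Cd72 by 0.75 (adjusted p = 0.00555) and Klrb1f by 0.60 (adjusted p = 0.00697). Klre1, at background, differed by -0.25 (adjusted p = 0.0124). With GFP-PFC, Cd72 (+0.77, adjusted p = 0.00471) and Klrb1f (+0.50, adjusted p = 0.0396) were higher in CIR-3 cells, where 0.963% of all genes were called higher. The Clec2g difference with GFP-PFC was +0.40 (adjusted p = 0.226). Klrb1f and Clec2g lie between Clec2i and Clec2d, and in unstimulated CIR-3 cells both were higher and Clec2i lower. Klrb1b, the receptor for Clec2d, was above background in no group.

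After Hyper-IL-6, Clec2d was lower, and no other member passed. Its signals were 11.63, 11.16 and 11.12 in unstimulated parental cells, 11.45, 11.10 and 11.09 with GFP-PFC and 10.77, 10.20 and 10.28 with Hyper-IL-6. All 3 Hyper-IL-6 arrays were below all 24 other arrays, the CIR lines included. The difference was -0.89 against unstimulated cells (SE 0.142, 1.85-fold, adjusted p = 0.000883) and -0.80 against GFP-PFC (SE 0.142, 1.74-fold, adjusted p = 0.00467). Of all genes, 0.0401% were called lower against unstimulated cells and 0.015% against GFP-PFC.

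All 7 exon-level probe sets of Clec2d were lower after Hyper-IL-6, with differences from -1.24 to -0.79. Leaving out 1 array did not end the Clec2d call against unstimulated cells, but a fit to the 6 compared arrays alone did (adjusted p = 0.216). Against GFP-PFC the call ended without GFP-PFC array 2 or Hyper-IL-6 array 4 or 6 (adjusted p from 0.0631 to 0.083). In unstimulated CIR cells the Clec2d differences from parental cells were +0.19 to +0.30 and did not pass, and without parental array 1 that of CIR-3 was +0.46 (adjusted p = 0.0455). In that setting 1638 of 19938 genes were called, against 296 with all arrays.

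Clec5a was the member with the highest difference in the other direction after Hyper-IL-6. Its signals were 8.52, 9.16 and 9.23, all above the 3 unstimulated parental arrays. The difference of +0.87 did not pass (SE 0.244, adjusted p = 0.155). Without Hyper-IL-6 array 2 it was +1.09 (adjusted p = 0.0319), and without all arrays numbered 1 and 2 +1.25 (adjusted p = 0.00998). All 10 Clec5a exon probe sets were higher, by 0.59 to 1.21. The Hyper-IL-6 arrays did not share the deviations of the other arrays with the neighbouring numbers (correlations across genes from -0.463 to -0.201 with the unstimulated parental arrays), and the part of this in the Clec5a and Clec2d values was not tested.

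No member passed the threshold after GFP-PFC. Averaged over the 4 lines, 0 of 10 members were called in limma (0.221% of all genes in either direction), 2 had an unadjusted p under 0.05 (6.3% of all genes) and 1 was called with array weights. These 2 were Clec4e and Clec2d. Clec4e was higher by 0.38 (SE 0.123, adjusted p = 0.364, and 0.0283 with array weights), and Clec2d differed by -0.17 (SE 0.0708, adjusted p = 0.641). Across all settings the share of all genes called in this comparison ran from 0.171% to 5.37%, so a call depends on the setting.

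Array numbers pair an unstimulated array with the GFP-PFC array of the next number, and in these 12 pairs Clec4e was higher with GFP-PFC in 12, by 0.09 to 0.56. Clec2d was higher in 1 of 12, with differences from -0.37 to +0.02. Clec5a was higher in 10 of 12 and Clec12a in 6 of 12. How many of all genes were as one-sided over these pairs was not counted. The fit with the array numbers as a replicate block called no member for the mean of the lines. Within single lines 0 of 10 members were called (0% of all genes in each), and no member's GFP-PFC difference varied among the 4 lines (0 of 10 members and 0% of all genes in the limma F-test, and 0 of 10 at an unadjusted p under 0.05, beside 0.943% of all genes). The 9 exon-level probe sets of Clec4e were all higher on the mean of the lines (0.16 to 0.64), and the 7 of Clec2d all lower (-0.25 to -0.13). No group received an addition without emulsion, per the labels, so handling and GFP-PFC cannot be told apart.

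**Figure D4:**
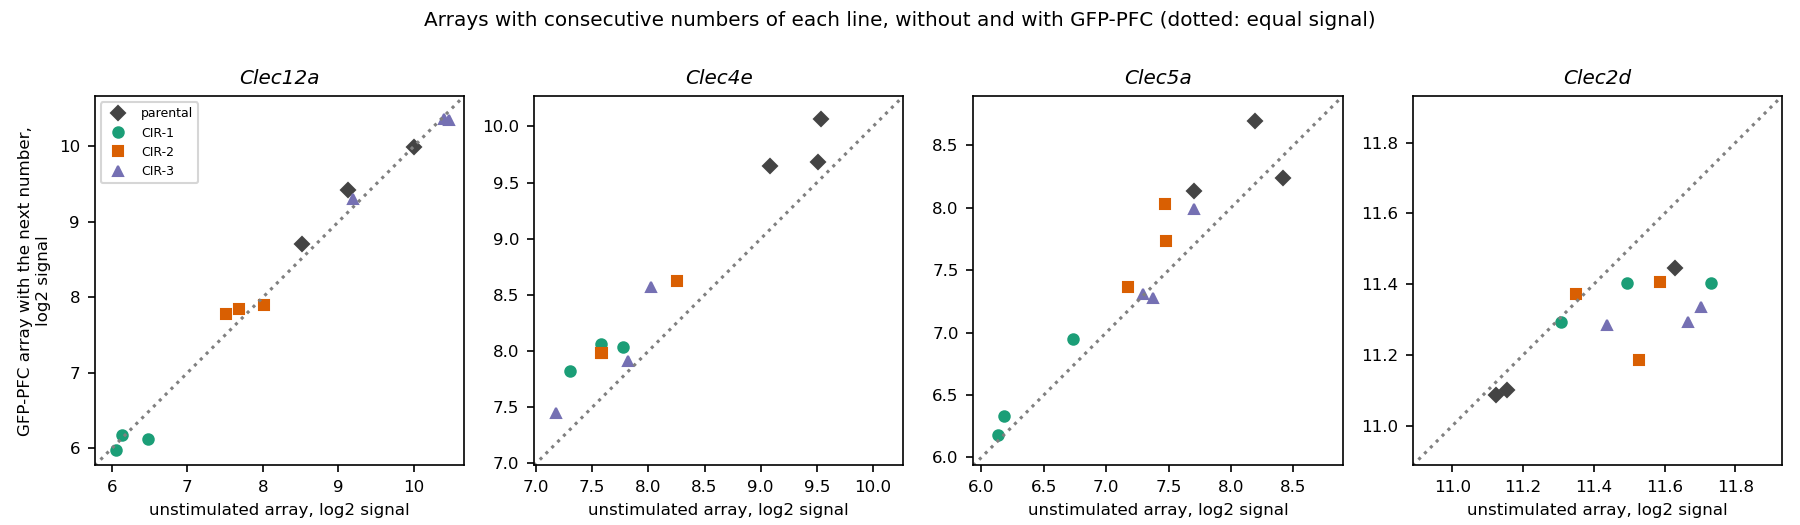
Log2 signal on each unstimulated array (horizontal axis) against that on the GFP-PFC array of the same line with the next number (vertical axis) for Clec12a, Clec4e, Clec5a and Clec2d, with 1 symbol per line and a dotted line of equal signal. All 12 Clec4e points lie above the line, 11 of 12 Clec2d points lie below it, and the Clec12a points follow it over the whole range of the lines.

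Genes with the most similar pattern were taken across the 9 group means, among 209 genes whose means spanned at least 1 log2 unit. The 9 means come from 4 lines only, so the correlations describe mostly line levels and carry no test. Fcer1a (r = 0.972), Mettl7b (0.966) and Cst7 (0.953) were most alike to Clec4e. Depdc7 (0.994), the eosinophil peroxidase gene Epx (0.986) and Bex6 (0.974) were most alike to Clec12a, and in all 3 the CIR-1 mean was the lowest and the CIR-3 mean the highest of the unstimulated groups. Chn2 (0.968), Gpr174 (0.957) and Slc9a9 (0.957) were most alike to Clec5a. For Clec2d the best were H2bc21 (0.869), Inka1 (0.797) and Tpst1 (0.68).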

How the data were processed

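RNA of 27 Ba/F3-gp130 samples was hybridised to mouse arrays, and the authors deposited gene-level and exon-level values made with Affymetrix Expression Console, per the labels and the submitters' processing notes. Version, normalization and log base are not given in the sources used here. The deposited values were read as log2 signal from their range of 2.97 to 14.9, and folds rest on that reading. Of 35556 probe sets, 21789 had 1 symbol, 1621 several and 12146 none, and 19938 genes resulted (999 with several probe sets, of which the one with the highest mean was kept). No dim gene was left out.

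A model with a mean for every group was fitted to the 27 arrays with limma 3.58.1 in R 4.3.3, with two-sided moderated tests, Benjamini-Hochberg adjustment over 19938 genes and a threshold of 0.05. Each SE belongs to the fitted difference. The number of arrays limits the precision. The members, lists, motifs and comparisons were chosen with earlier results of these data known. The rule for names took the 10 members, members of the fixed lists and, per member with a span of at least 1, the 3 most alike genes. Exon-level values (241576 probe sets) used sets listed with the gene's symbol alone. The fitting was tested on simulated data.

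Unstimulated arrays carried the replicate numbers 1, 3 and 5, and stimulated ones 2, 4 and 6. Deviations from group means correlated positively in all 12 consecutive pairs (0.282 to 0.633), in 18 same-numbered unstimulated pairs (0.137 to 0.763) and in 18 GFP-PFC pairs (0.211 to 0.615), so the numbers were taken as pairing these arrays. Hyper-IL-6 arrays did not share the deviations (-0.463 to -0.201 with unstimulated and -0.214 to -0.0913 with GFP-PFC parental arrays). The replicate block nonetheless covered all 27 arrays and placed the Hyper-IL-6 arrays by their numbers. A block without them was a further setting. The alternatives were the compared arrays alone, this replicate block, exon-level values, quantile normalization, no dim genes, array weights, no arrays numbered 1 and 2, and leaving out each array. Protein sequences, though planned, were not used here.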

Additional observations from a re-analysis of the deposited data

How the results depend on the processing

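Of 26 member differences that were called, 16 kept their call and direction under every alternative run for them, 10 lost the call under at least 1, and 0 turned direction. A further 12 member differences that were not called passed under at least 1 alternative. The 16 included Clec4e in all 6 comparisons of a CIR line with parental cells, Clec12a and Clec5a in CIR-1 and Clec12a among the CIR lines. With only the compared arrays fitted, the members called fell from 4 to 3 in unstimulated CIR-1 cells, to 1 in unstimulated CIR-2 and CIR-3 cells, from 3 to 2 in CIR-3 cells with GFP-PFC and to 0 in both Hyper-IL-6 comparisons. Exon-level values left 1 in unstimulated CIR-2 cells, 2 in CIR-3 cells with GFP-PFC and 2 for CIR-2 against CIR-1. Quantile normalization left 2 in CIR-3 cells with GFP-PFC. With array weights the counts were 5 in unstimulated CIR-3 (3799 of 19938 genes called) and 5 in CIR-2 with GFP-PFC (942 of 19938). They were 2 for CIR-3 against CIR-2, 2 and 2 after Hyper-IL-6 (against unstimulated and GFP-PFC arrays) and 1 for the mean GFP-PFC difference. Without the arrays numbered 1 and 2, the counts were 1 in unstimulated CIR-2 (622 of 19938 genes called) and 4 in CIR-3 (3230 of 19938). They were 2 for CIR-2 against CIR-1 and 2 after Hyper-IL-6 against unstimulated cells. These settings also moved the share of all genes called, so added member calls are no result about the members alone. The share ran from 0.396% to 19.1% in unstimulated CIR-3 cells and from 0.687% to 4.72% in CIR-2 with GFP-PFC. For CIR-3 against CIR-2 it ran from 1.47% to 10.9%. After Hyper-IL-6 it ran from 0.155% to 18.4% against unstimulated cells and from 0.206% to 9.67% against GFP-PFC. The cause was not tested. Leaving out each array in turn gave 4 to 4 members in unstimulated CIR-1, 1 to 2 in CIR-2 and 1 to 4 in CIR-3, and with GFP-PFC 4 to 5, 1 to 2 and 1 to 4. It gave 2 to 3 for CIR-2 against CIR-1, 2 to 2 for CIR-3 against CIR-1, 1 to 2 for CIR-3 against CIR-2, 1 to 2 for Hyper-IL-6 against unstimulated cells, 0 to 1 against GFP-PFC and 0 to 0 for both GFP-PFC tests over the lines. The replicate block, which rests on the assumed pairing, gave 5 members in unstimulated CIR-1 cells in place of 4 and added calls of Clec4d alone, as it also did without the Hyper-IL-6 arrays, a setting chosen after seeing the data. Another probe set per member was not tried, since each member had 1. The CIR-1 signals of Clec12a and Clec5a lie below the background reference, and Clec4d exceeds it on 14 of 27 arrays, which limits how well small changes in them can be seen.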
